A study of Mus musculus with 2 samples.

Results

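Dclk1, Grin2b, Prkar2a, Ywhaz and Ppp2r2b are 5 genes that the array covers with several probes each, and their probes gave different busulphan over control ratios within 1 gene. All non-control probes carrying 1 of these gene names were taken, which gave 17 of 15208 probes, for 5 of 11109 gene names. The genes were chosen because their probes disagreed on these same arrays, so the ratios below describe them and test nothing. The label of disagreement held in direction for 3 of the 5 genes. In Dclk1, Grin2b and Ywhaz at least 1 probe was 2-fold higher and another 2-fold lower in the busulphan library. In Prkar2a and Ppp2r2b the compared probes all had log2 ratios below 0 and disagreed in size.

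Sertoli cells nurse the germ cells inside the seminiferous tubules, and both libraries carry the label of Sertoli cells isolated from testis. The animals were male Swiss mice, adult at 3 months of age. The control mice received nothing. The others received 25 mg/kg busulphan, an alkylating drug widely used to deplete germ cells, and were examined 1 month later. The study asked which genes change in Sertoli cells after treatment. Each group is 1 array, the number of pooled mice is not in the labels, and the cells were collected on a strainer and not sorted, so preparation, labelling and group cannot be told apart. With n = 1 per group there is no replicate error, no test and no p-value, and each difference compares these 2 libraries.

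A 60-base probe reports those transcripts of a gene that contain its bases. One gene can give several transcripts that differ in their start, exons or 3′ end, and germ cells of the testis are known for using many such alternative forms. Dclk1 encodes a microtubule-binding doublecortin domain joined to a protein kinase, with long forms and shorter forms that lack one of these parts. Grin2b encodes a subunit of the NMDA glutamate receptor. Prkar2a encodes a regulatory subunit of cyclic AMP-dependent protein kinase (PKA), which anchoring proteins hold near the sperm tail among other places. Ywhaz encodes the zeta member of the 14-3-3 adaptor proteins, which bind phosphorylated partners, and is often used as a reference gene. Ppp2r2b encodes a regulatory B subunit of protein phosphatase 2A (PP2A). Grin2b, Dclk1 and Ppp2r2b are best known from neurons.

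The sequences of 6 probes are shown, all with a forward reading frame free of stop codons and none from Ppp2r2b. The 3′ probe of Ywhaz and the second probes of Dclk1 and Grin2b, on which the disagreements also turn, are not shown. Of those shown, the first Dclk1 probe was well above background in the busulphan library only, and the other 5 are probes that were lower there. They are written 5′ to 3′ as the files hold them, with nothing capitalised since no part of a probe is singled out.
Dclk1 A_52_P217807: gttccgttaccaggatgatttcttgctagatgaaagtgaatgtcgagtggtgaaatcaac
Dclk1 A_52_P21628: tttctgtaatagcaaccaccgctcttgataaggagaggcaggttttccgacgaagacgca
Grin2b A_52_P248920: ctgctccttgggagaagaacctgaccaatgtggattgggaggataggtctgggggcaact
Grin2b A_51_P265765: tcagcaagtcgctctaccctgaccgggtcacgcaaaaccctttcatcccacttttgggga
Prkar2a A_51_P217295: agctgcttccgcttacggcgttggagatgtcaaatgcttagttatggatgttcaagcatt
Ywhaz A_52_P225260: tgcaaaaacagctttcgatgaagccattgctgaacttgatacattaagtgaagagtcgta

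Positions are those of the files, on mouse build mm9, and the order of the coordinates was read as the direction of transcription. For 4 of the 17 probes the coordinates span more than the probe's 60 bases, so these probes cross at least 1 exon junction. For 11 they span exactly 60 bases, and for 2 only a part of the probe is placed. The coding or untranslated status of each probe is not given in the files used here, and no transcript sequences were used here. At least 1 of the 3 forward reading frames was free of stop codons in 15 of the 17 probes, including all 7 that were at least 2-fold lower, against 82.3% of all probes. GC content ran from 35.0% to 55.0%, beside a median of 43.3% over all probes. A run of 15 bases shared with another probe on the array was found for 1 of the 17, the 3′ probe of Ywhaz, which shares it with the Lao1 probe (log2 ratio -0.50).

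Values are processed scanner signals in arbitrary units, which can be set side by side between arrays for 1 probe but not between probes. A ratio is the busulphan minus the control log2 signal after each array was scaled to its 75th percentile, given with the error that the scanner software assigns to the spots. A probe was called higher or lower from 2-fold upwards, a log2 ratio of 1 or -1. Where only 1 of the arrays showed a probe well above background, the fold is a lower bound, written as at least so many fold. The control array had 80.9% and the busulphan array 79.3% of probes well above background. Of the 17 probes, 11 were measured on both arrays, 4 carried a bound and 2 were not well above background on either array. None was saturated. The number of arrays limits the precision. Of 12 Sertoli cell markers compared, 11 were higher in the busulphan library, and their summed signal was 12428 in the control and 118295 in the busulphan library. Of 9 spermatid markers all were lower, with summed signals of 457411 and 35501, and of 10 spermatocyte markers 7 were lower, with summed signals of 224830 and 36245. These sums include saturated spots, whose signal is a lower limit, namely Clu in the Sertoli cell sum of the busulphan library, and in the control sums 6 spermatid markers and the spermatocyte markers Pgk2 and Ldhc. The sums add signals of unlike probes and lean on the brightest ones. In the Sertoli cell list Clu alone gave 8565 in the control and 68019 in the busulphan library. Of 7 macrophage markers 5 were higher and none was lower, and their summed signal was 1088 in the control and 5244 in the busulphan library. The lists of spermatogonia, Leydig cells, peritubular myoid cells, endothelium and red blood cells had median log2 ratios between -0.77 and 0.53. All compared markers of these lists were well above background on both arrays, so none of them was at 0. These shifts stand beside every ratio below, and their part in it was not tested. Fewer cells of a type and less RNA per cell cannot be told apart in such preparations.

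Of the 15 probes compared, 4 were higher in the busulphan library, 7 were lower and 4 were called neither way. The last include the 5′-most Ppp2r2b probe, whose bound does not reach 2-fold. The median log2 ratio of the 15 probes was -0.90. Over all 12852 probes compared, 31.6% were higher and 29.0% lower, and the median log2 ratio was 0.10. Since the genes were chosen on these ratios, nothing is read from that difference.

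The 4 Dclk1 probes span 156 kb of chromosome 3. The 5′-most probe, A_52_P217807, crosses a junction between chr3:55184765-55254910. It gave a signal of 6.19 in the control, not well above background, and 45.7 in the busulphan library, at least 7.05-fold higher. The next probe, A_52_P26991 at chr3:55271688-55271747, gave 7.02 in the control, again not well above background, and 61.4 in the busulphan library, at least 9.47-fold higher. Both 5′ probes were therefore well above background in the busulphan library only. Their software errors were 0.43 and 0.40 (log2).

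The third Dclk1 probe went the other way. A_52_P21628 crosses a junction between chr3:55320895-55337537 and gave 1191 in the control and 10.3 in the busulphan library, 100-fold lower (log2 -6.64, software error 0.28). The 3′-most probe, A_51_P270355 at chr3:55340456-55340515, was dim on both arrays, at 11.7 and 9.0, with a log2 ratio of -0.17 (software error 0.35). In the control, then, the third and the 3′-most probes were well above background, and in the busulphan library all 4 were. The highest and lowest ratios differed by a log2 value of at least 9.89, against a combined software error of 0.49.

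The files list up to 4 transcripts or sequences with a probe, so an absent entry does not show that a transcript lacks the probe. The second Dclk1 probe is listed with the RefSeq transcripts NM_001111053 and NM_001195540, and neither stands beside the third or the 3′-most probe. The first probe is listed with NM_001111053 and also with NM_019978 and NM_001195538, which the third and 3′-most probes carry too. The transcript lists thus separate the second probe from the third, and place the first with both. With normexp background correction, which shrinks the folds of dim spots, the third probe was at -4.04 and the second at 1.14 or above. The first was at 0.92 or above there, a bound that does not reach 2-fold. With spike-in scaling the 3′-most probe passed 2-fold, at -1.06.

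Grin2b had its highest ratio towards the 5′ end and its lowest ratios at the 3′ end, as Dclk1 had them upstream and downstream. Its 4 probes span 443 kb of chromosome 6 on the reverse strand. The 5′-most probe, A_51_P229869 at chr6:136122961-136123020, was not well above background on either array, with 5.09 in the control and 1.37 in the busulphan library, and has no ratio. The second probe, A_52_P367017 at chr6:136121705-136121764, gave 1.72 in the control, not well above background, and 13.8 in the busulphan library, at least 2.13-fold higher. That bound did not reach 2-fold with normexp (0.40), spike-in scaling (0.20), median scaling (0.92) and no scaling (0.88). The software error of this second probe was 1.43 (log2), larger than its bound of 1.09. The call of Grin2b in both directions therefore rests on 1 dim spot.

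The lower side of Grin2b rests on both 3′ probes. A_52_P248920 at chr6:135682925-135682984 gave 1037.5 in the control and 10.4 in the busulphan library, 86.5-fold lower (log2 -6.44, software error 0.28). A_51_P265765, of which the files place 11 bases at chr6:135679813-135679823, gave 3596 and 27.2, 114-fold lower (log2 -6.84, software error 0.22). The gap between these ratios was close to their combined software error. With normexp they were at -3.80 and -5.30. All 4 Grin2b probes are listed with the same RefSeq transcript, NM_008171, so the listed annotation does not separate them.

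Ppp2r2b also had its lowest ratios at the 3′ probes, and no probe that was higher in the busulphan library. Its 4 probes span 90.5 kb of chromosome 18 on the reverse strand. The 5′-most, A_52_P304031 at chr18:42895636-42895695, gave 10.6 in the control and 2.66 in the busulphan library, not well above background there. Its log2 ratio was -0.55 or below (software error 0.80). The next, A_52_P478072 at chr18:42893433-42893492, gave 2.18 and 1.40, not well above background on either array. These 5′ probes are listed with cDNA clones and with no curated RefSeq transcript.

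Both 3′ Ppp2r2b probes are listed with NM_028392 and NM_027531. A_52_P465012 at chr18:42822826-42822885 gave 7211 in the control and 42.5 in the busulphan library, 147-fold lower (log2 -7.20, software error 0.21), the lowest ratio among the 15 probes compared. A_51_P220278 at chr18:42805163-42805222 gave 634 and 15.5, 35.4-fold lower (log2 -5.14, software error 0.24). The difference between them was larger than their software errors, so these probes disagreed in size too. With normexp they were at -5.99 and -3.10. The 5′-most probe passed 2-fold with spike-in scaling (-1.44) and with measured values in place of bounds (-1.78).

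In Prkar2a the order along the gene was the reverse, with the lowest ratio at the 5′-most probe. Its 3 probes start within 2.94 kb of each other on chromosome 9. A_51_P217295 crosses a junction between chr9:108647914-108649210 and gave 10959 in the control and 79.3 in the busulphan library, 120-fold lower (log2 -6.90, software error 0.21). A_52_P367583 at chr9:108649976-108650035 gave 136 and 62.8, a log2 ratio of -0.90 (software error 0.21). A_51_P409893 at chr9:108650854-108650913 gave 556 and 305, a log2 ratio of -0.66 (software error 0.20). Both 3′ probes had nearly equal ratios, which lay a log2 difference of 6.24 above the 5′ probe at its widest, with a combined software error of 0.29.

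All 3 Prkar2a spots were well above background on both arrays, so this disagreement does not rest on a dim spot or a bound. All are listed with 1 RefSeq transcript, NM_008924. The 3′-most probe contains ATTAAA, 1 of the common polyadenylation signals, and AATAAA or ATTAAA, searched on the given strand, stood in 6.79% of all probes. It was the 1 probe of the 17 to hold either. The match describes the letters of the probe and shows no site of cleavage. The middle probe passed 2-fold lower with 5 other scalings, at -1.08 by the median, -1.11 unscaled, -1.01 by quantiles, -1.25 by loess and -1.79 by spike-ins. The 3′-most probe did so with loess (-1.10) and spike-ins (-1.55). The 5′ probe lay between -7.79 and -6.22 over the alternatives.

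Ywhaz was the gene with bright spots on both sides of the disagreement. Its 2 probes lie 5.16 kb apart on chromosome 15, on the reverse strand. The 5′ probe, A_52_P225260, crosses a junction between chr15:36705040-36705180 and gave 6817 in the control and 1418 in the busulphan library, 4.16-fold lower (log2 -2.06, software error 0.20). The 3′ probe, A_51_P480709, of which the files place 13 bases at chr15:36700012-36700024, gave 974 in the control and 4467 in the busulphan library, 5.30-fold higher (log2 2.41, software error 0.20). No spot was near background, and both probes are listed with NM_011740.

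The Ywhaz ratios differed by a log2 value of 4.46 (22.1-fold), against a combined software error of 0.29. Over the alternatives the 5′ probe lay between -2.95 and -1.71 and the 3′ probe between 1.52 and 2.66. Ywhaz was thus called in both directions under every processing alternative at the 2-fold threshold, and it was the 1 gene of the 5 called in both directions when only probes well above background on both arrays were used. A gene often used as a reference thus had opposite calls from its 2 probes.

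Spots near the member probes on the slide were also read. Within 2 rows and 2 columns of each, between 17 and 22 other probes were compared. Their median log2 ratio lay between -0.36 and 0.54 around the 7 lower probes, and between -0.50 and 0.83 around the 4 higher probes. Over all 17 it ran from -0.89 to 1.11. The lowest of these medians stood around the middle Prkar2a probe, whose own ratio was -0.90, and the highest around the 5′-most Ppp2r2b probe. None of the 17 probes carried an outlier mark.

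Of the 5 genes, 3 were called in both directions, and over all 2660 genes with at least 2 compared probes 174 were (6.54%). The members were picked for this, so the share is background and not a result about them. The median gene had a spread of 0.81 (log2) between its highest and lowest probe, a 1.76-fold difference. Adding probes to a gene can only widen its spread, and genes were not matched for their number of probes. Dclk1 had 4 compared probes, Grin2b, Prkar2a and Ppp2r2b had 3 each, and Ywhaz had 2. The spread was at least 9.89 in Dclk1 and at least 7.93 in Grin2b, and in Ppp2r2b, where the bound lies on the higher probe, at most 6.65. It was 6.24 in Prkar2a and 4.46 in Ywhaz, whose probes were all measured on both arrays. With the bounds taken as values, the order by spread put Dclk1, Grin2b, Ppp2r2b, Prkar2a and Ywhaz at places 1, 2, 8, 13 and 108. The first 3 of these places depend on dim spots. With probes well above background on both arrays only, the spread was 6.47 in Dclk1, 0.40 in Grin2b and 2.06 in Ppp2r2b, at places 5, 1550 and 525 of 2356 genes. With normexp it was 5.18 in Dclk1, 5.69 in Grin2b and 5.99 in Ppp2r2b, at places 18, 11 and 5, beside 5.69 in Prkar2a and 4.36 in Ywhaz. With measured values in place of bounds it was 9.98 in Dclk1, 10.1 in Grin2b and 5.42 in Ppp2r2b.

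The order along the gene was also counted over the array. In 2527 genes with placed probes at least 60 bases apart on 1 strand, the 3′-most probe had a ratio at least 2-fold above that of the 5′-most in 823 (32.6%) and at least 2-fold below it in 238 (9.42%). Prkar2a (6.24) and Ywhaz (4.46) belong to the larger group. Dclk1, Grin2b and Ppp2r2b were counted in the smaller one. In each of these 3 genes the 5′ end of the comparison is a bound, so the difference was -2.99 or below in Dclk1, -7.93 or below in Grin2b and -4.60 or above in Ppp2r2b. With measured values in place of bounds it was -3.26, -10.1 and -3.36. Divided by the distance between the probes, with limits set after the values were seen, the 1684 genes under 10 kb had the 3′ probe higher in 34.3% and lower in 6.0%. The 243 genes over 50 kb had it higher in 24.7% and lower in 23.5%. Prkar2a and Ywhaz fall in the first of these classes, and the other members in the second. No test of these counts was made, since probes of 2 libraries are not replicates.

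Genes were ranked by how far their probes went both ways, among 2334 genes with at least 2 probes measured on both arrays without saturation. The measure was the smaller of the highest ratio and the lowest ratio with its sign turned, over 2 arrays. It finds the largest opposite ratios and does not compute likeness to Ywhaz. Ywhaz stood at place 15, with a value of 2.06. The 10 leading other genes were Prdx6, Lgr4, Scamp1, Ppm1a, Mgat5, Mib1, Dpysl5, Abi2, Pnkd and Aph1b, with values from 2.88 to 2.20. Prdx6, a peroxiredoxin, had probes from -2.95 to 2.88. Lgr4, a receptor for R-spondins, had probes from -2.81 to 3.57, and Scamp1, a membrane trafficking protein, from -4.40 to 2.53. The 3′-most probe had a ratio at least 2-fold above that of the 5′-most in 6 of these 10, as it had in Ywhaz. Over all placed genes called in both directions it did so in 126 of 171 (73.7%).

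The other genes of the 5 families, each by its brightest probe, are given as background to the members. The members were chosen on their own probe ratios, so nothing is read from where a member probe lies against its family. Over all 9413 genes compared 31.2% were higher and 29.5% lower, around a median log2 ratio of 0.06. The family lists hold 17 genes with at least 2 compared probes, and none of these was called in both directions. Over the array the share was 6.54% (174 of 2660 genes), so with 17 genes nothing is read from this count.

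Among 13 PKA subunits, inhibitors and anchoring proteins compared beside Prkar2a, 4 were higher and 5 lower, while 4 were called neither way. The median was -0.73 (between -1.62 and 0.00 over the alternatives). That median is the value of Akap12, 1 of the 4 called neither way. Its control spot was saturated, so its ratio is -0.73 or below. Without saturated probes the median was -0.66. With normexp 2 were higher, and over the alternatives 5 to 8 were lower. Akap4 and Akap1 were lowest, at 71.4-fold and 65.8-fold lower. Akap4 is the main anchoring protein of the sperm fibrous sheath and stands in the spermatid list as well, and Akap1 anchors PKA at mitochondria. The regulatory subunit Prkar1a was 4.26-fold higher and the inhibitor Pkia 3.93-fold, the latter within 2-fold with normexp. The ratio of the Prkar2a 5′ probe was as low as those of these anchoring proteins, while its 3′ probes lay near the list's median.

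Of 6 other 14-3-3 genes compared beside Ywhaz, 3 were higher and none was lower, and the median was 1.04 (between 0.15 and 1.54 over the alternatives). Ywhag was 9.37-fold and Ywhah 5.57-fold higher. The lowest were Ywhae at -0.71 and Ywhaq at -0.45, which passed 2-fold lower with spike-in scaling, as did 3 of the 6 there. The 5′ probe of Ywhaz, at -2.06, was below all 6, and its 3′ probe, at 2.41, was within their range.

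Of 10 PP2A subunits compared beside Ppp2r2b, 2 were higher and 6 lower, and the median was -1.39 (between -2.28 and -1.05). The scaffold subunit Ppp2r1a was 4.31-fold and the catalytic subunit Ppp2ca 2.88-fold higher, the latter within 2-fold with spike-in scaling. Ppp2r3c was 6.20-fold and Ppp2r5c 3.95-fold lower, although another Ppp2r5c probe gave 0.79. No other PP2A subunit was as low as the 3′ probes of Ppp2r2b.

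Of 14 ionotropic glutamate receptor subunits compared beside Grin2b, 2 were higher and 9 lower, and the median was -1.75 (between -2.65 and -0.52). The count of lower subunits ran from 4, with probes well above background on both arrays, and 5 with normexp, to 12 with spike-in scaling. The NMDA receptor subunit Grin2c was 17.1-fold higher, and the AMPA receptor subunit Gria1 2.46-fold, with another Gria1 probe at -0.90. The NMDA receptor subunit Grin3b was 24.4-fold lower, and Gria4 at least 17.7-fold lower with another probe at -1.09 or below. Both 3′ probes of Grin2b were lower than every other subunit compared, except that with normexp A_52_P248920 was above Grin3b. Of the doublecortin family 2 genes were compared beside Dclk1. Dcdc2a was 19.7-fold lower, with another probe at -1.25, and Dcx had a log2 ratio of -0.53 or below at a control signal of 10.4.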

How the data were processed

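Total RNA of 1 control and 1 busulphan preparation was labelled with Cy3 and hybridised to 1 single-colour array each. Per the file headers, the authors' intensity values came from Agilent Feature Extraction 11.5.1.1 with background subtraction and a correction for trends across the slide. The deposited log2 table equals log2 of the processed signal minus 10.03 (control) and 9.82 (busulphan), with column medians of -2.94 and -2.77; its scale, centring and direction follow from this. Per the file headers the probe coordinates are on mm9.

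Each processed signal was taken as log2 and its array's 75th percentile subtracted, over 15208 non-control probes, without 4 outlier-marked probes. A probe was compared if either array showed it well above background (12852 probes). For a bound, the dim spot was raised, where lower, to the array's lowest signal called well above background, which was 7.50 for control and 6.26 for busulphan. Genes are the GeneName entries of the files. Named genes were all member probes, the 2 highest and 2 lowest of each family and the 10 other genes leading in opposite probe ratios, clone names left out. The members and lists were chosen with earlier results of these data known. Alternatives were normexp (limma 3.58.1, offset 50), 6 other scalings including 6 spike-in probes with 20 spots each, the deposited table, filters on dim and saturated spots, no bounds, a gene's median probe and thresholds of 1.5-fold and 4-fold. The step that counts genes called in both directions was run on simulated data whose only noise was the software spot error. Opposite shifts were planted there in bright probes. That run checks the counting step and says nothing about how firm the count of such genes is. One marker gene is not reported here.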

Additional observations from a re-analysis of the deposited data

How the results depend on the processing

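The 7 lower and 4 higher member probes kept their sign under all alternatives in which they had a value. Normexp left 2 member probes higher and 89 genes of the array called in both directions. Spike-in scaling gave 11 lower member probes and 32 lower family genes, beside 21 with the main scaling. Spike-in scaling moved all ratios down by a log2 value of 0.89. With probes well above background on both arrays only, 1 member probe was higher and 1 member gene was called in both directions. At 1.5-fold, 319 genes of the array were called in both directions and 380 had a lower 3′-most probe. At 4-fold, 23 genes were called in both directions, 443 had a higher and 100 a lower 3′-most probe, and 6 family genes were higher, beside 11 at 2-fold. The counts under the thresholds, the filters and spike-in scaling follow from their construction, since spike-in scaling lowers all ratios alike. Why the spike-ins differ from the main scaling was not tested, nor was the cause for normexp. Of 114 recomputed counts, 102 stayed within 1.5 times. Part of these could hardly move, since median scaling, no scaling and the deposited table shift all ratios alike. The tally therefore says little about how firm the results are. The alternatives for the counts by probe order were chosen after seeing the data. Dim spots limit Dclk1, Grin2b and Ppp2r2b, whose spreads rest on bounds. No paired analysis was possible because each group holds 1 array.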

Other observations

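Among the genes on the marker list of neurons and glia, Mbp and Snap25 were called in both directions, and they were picked out after the values were seen. Mbp, a myelin protein, had probes from -3.49 to 1.16. The brightest Mbp probe, at 1.16, had signals of 30.6 in the control and 59.1 in the busulphan library. The other Mbp probes were dimmer by their mean over both arrays. Snap25, a synaptic vesicle fusion protein, had probes from -1.32 to 2.44, with bounds among them. The brightest Snap25 probe had signals of 18.1 in the control and 5.36 in the busulphan library. No gene of the other marker lists was called in both directions, beside 6.54% of genes over the array, and nothing is read from this.

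Crem, a transcription factor gene known for germ cell forms, had 6 compared probes with log2 ratios from -5.46 to 0.95, so it was not called in both directions although its spread of 6.41 stood among the 10 widest. It was picked after its values were seen.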
